A study of Rattus norvegicus with 4 samples.

Results

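Interferon-stimulated genes are the genes that cells switch on when an interferon binds its receptor. They were followed here in the uterus of the pregnant rat, on 2 arrays of the ormeloxifene group and 2 arrays of the vehicle group. The list held 51 symbols of the interferon response. Of these, 46 were the single gene symbol of a probe set in the platform annotation, out of 18166 genes tested in all. Where a gene had several probe sets (2 of the 46, Ifitm3 and Usp18), the brightest on average was kept. Ddx58, Eif2ak2, Oas3, Parp12 and Bst2 were not analysed here.

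Ormeloxifene is a non-steroidal modulator of oestrogen receptors used as an oral contraceptive. The Sprague Dawley females were adults of 10 to 12 weeks. They were fed ormeloxifene in gum acacia once, on day 1 of pregnancy, at 1.25 mg per kg, or the vehicle alone. The uterus was taken on day 5, before implantation, and its total RNA was hybridized to Affymetrix whole-transcript arrays, 1 per labelled biological replicate. The sources used here do not say whether an array held RNA of a single rat or a pool.

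Interferons of type I signal through Ifnar1 and Ifnar2 and the kinases Jak1 and Tyk2 to a complex with Stat2 and Irf9, which binds the interferon-stimulated response element (ISRE). Interferon gamma signals through Ifngr1 and Ifngr2, and many of its target genes carry the gamma-activated site (GAS). The genes reached in this way encode nucleic acid sensors, antiviral enzymes, GTPases, and the regulators Irf1, Irf7 and Irf8. In ruminants the early embryo itself secretes an interferon that induces such genes in the uterus. In rodents, interferon gamma is known mainly from uterine natural killer cells after implantation.

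The DNA letters of both elements were looked for in promoter windows from RefSeq (GRCr8). Each reached from 250 bases before to 50 bases after the start given for the window. For some genes this start lies inside the annotated gene. Windows existed for 36 of the 46 genes. The ISRE was searched as GAAANNGAAA or TTTCNNTTTC, the same letters on the other strand, and was present in 23 of the 36 genes (63.9%), against 530 of 14505 genes on the array with a window (3.65%). The GAS was searched as TTCNNNGAA, which reads the same on both strands, and was present in 12 of the 36 (33.3%), against 8.19% of the 14505. Both were present in 7 of the 36. Of the 30 ISRE matches, 21 began within 100 bases before the start. A match is a description of the letters, and no match says nothing about binding elsewhere.

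The stretches below are the 120 bases directly before the window's start, read 5′ to 3′ along the gene, with the ISRE match in capitals. They are shown because, of members with a match in these bases, Lgals3bp and Ifi44 had the highest differences and Gbp4, Ifitm2 and Gbp2 the lowest. Of all stretches shown, those of Gbp4, Irgm and Cmpk2 lie wholly inside the annotated gene, and those of Ifi44, Oas1a and Oas1b partly.
Lgals3bp, GRCr8 chr10:104127849-104127968, minus strand: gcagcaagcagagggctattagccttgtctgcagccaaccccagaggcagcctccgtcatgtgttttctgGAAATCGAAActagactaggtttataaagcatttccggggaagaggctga
Ifi44, GRCr8 chr2:243303841-243303960, minus strand: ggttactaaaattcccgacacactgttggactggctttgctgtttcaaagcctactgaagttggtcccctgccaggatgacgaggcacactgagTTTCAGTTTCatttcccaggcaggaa
Gbp4, GRCr8 chr2:233978366-233978485, plus strand: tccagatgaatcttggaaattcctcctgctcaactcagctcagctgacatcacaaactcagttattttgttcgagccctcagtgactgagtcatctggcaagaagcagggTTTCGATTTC
Gbp2, GRCr8 chr2:234005607-234005726, plus strand: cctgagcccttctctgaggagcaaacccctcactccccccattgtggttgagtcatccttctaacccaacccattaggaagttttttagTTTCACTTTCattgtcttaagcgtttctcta
Ifitm2, GRCr8 chr1:205482349-205482468, minus strand: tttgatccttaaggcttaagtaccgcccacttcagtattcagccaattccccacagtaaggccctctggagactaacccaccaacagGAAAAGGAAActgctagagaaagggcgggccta

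Oas1a and Oas1b, neighbouring paralogs with differences near 0, are shown because their capitals are the same run of 16 letters, in which 2 ISRE matches overlap.
Oas1a, GRCr8 chr12:41330346-41330465, plus strand: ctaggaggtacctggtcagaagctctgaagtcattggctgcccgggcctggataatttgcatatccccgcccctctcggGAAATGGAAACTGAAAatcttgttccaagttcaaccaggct
Oas1b, GRCr8 chr12:41395853-41395972, minus strand: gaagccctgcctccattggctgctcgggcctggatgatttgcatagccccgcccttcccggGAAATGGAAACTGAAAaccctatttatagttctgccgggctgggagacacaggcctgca

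Irgm, Igtp and Parp14 are shown because a GAS match began 11 bases before a GAAANNGAAA match in each; capitals mark both. That spacing was chosen after these windows had been read. Among the 14505 genes on the array with a window it was found in 3, these same genes.
Irgm, GRCr8 chr10:33742579-33742698, minus strand: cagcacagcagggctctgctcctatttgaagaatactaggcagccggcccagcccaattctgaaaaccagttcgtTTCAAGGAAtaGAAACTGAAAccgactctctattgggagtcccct
Igtp, GRCr8 chr10:42874927-42875046, plus strand: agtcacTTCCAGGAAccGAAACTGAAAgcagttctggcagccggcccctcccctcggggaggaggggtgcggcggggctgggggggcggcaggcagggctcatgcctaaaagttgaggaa
Parp14, GRCr8 chr11:78408014-78408133, plus strand: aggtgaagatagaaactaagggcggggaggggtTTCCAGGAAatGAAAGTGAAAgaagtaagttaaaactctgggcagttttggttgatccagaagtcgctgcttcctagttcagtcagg

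Cmpk2, the member with the largest difference, had no ISRE match in its window. The annotated gene begins at base 48802150, before that window, so the bases upstream of the gene were not searched. A spacer of 1 base in place of 2 (GAAANGAAA or TTTCNTTTC) was searched only after the Cmpk2 window had been read. This form was present there 2 times, in capitals here. It was present in 8 of the 36 members with a window (22.2%), against 3.21% of the 14505 genes. Among the 8 was also Gbp4, the member with the lowest difference.
Cmpk2, GRCr8 chr6:48802730-48802849, plus strand: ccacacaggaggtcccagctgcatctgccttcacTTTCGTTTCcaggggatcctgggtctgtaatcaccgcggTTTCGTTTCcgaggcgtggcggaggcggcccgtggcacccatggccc

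Members with and without an ISRE match covered overlapping ranges of difference. With a match, 11 were higher and 12 lower with ormeloxifene, from -0.38 to 0.33 at a median of -0.025 on the log2 scale. Without one, 9 were higher and 4 lower, from -0.09 to 0.64 (Cmpk2, whose window lies inside the gene) at a median of 0.05. The 10 genes with no window, Oas2, Mx2 and Zbp1 among them, had a median of 0.12. Each match is set against its gene's difference in the plot of ISRE positions.

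**Figure D1:**
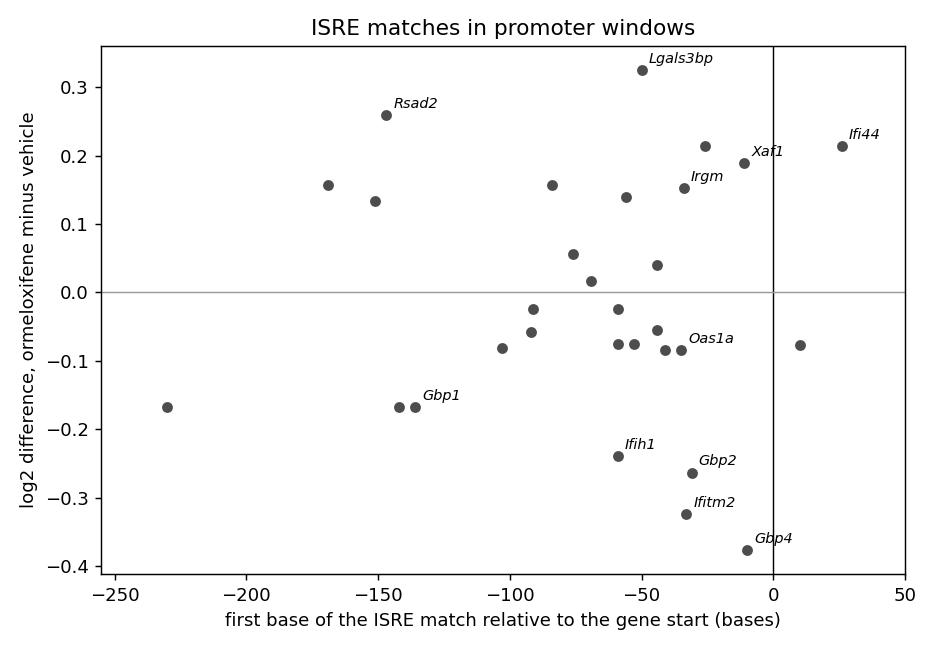
Each point is 1 ISRE match in the promoter window of an interferon-stimulated gene. The horizontal axis gives the first base of the match relative to the start given for the window. The vertical axis gives the log2 difference, ormeloxifene minus vehicle. Matches gather within 100 bases before the start (21 of 30), at differences from -0.38 to 0.33.

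Signals are log2 values after quantile normalization, and a difference is the ormeloxifene mean less the vehicle mean, ± its standard error. The fit was limma over all 18166 genes without a block, 2-sided, with Benjamini-Hochberg adjustment and a threshold of 0.05. By that test 0 of the 46 genes passed, each with an adjusted p of 1.00, and 0% of all genes did. At an unadjusted p under 0.05 stood 2 of the 46 higher (4.35%, against 1.12% of all genes) and 0 lower (against 1.08%), where 2.2% of all genes stood in either direction. Those 2 were Oas2 and Mx2. On the values as deposited the count was 0 (against 0.314% of all genes higher). It was also 0 with arrays centred on their medians (against 0.617%) and with all probe sets tested (against 0.567% of them). Neither gene kept its place in these settings. An exact permutation test of 2 arrays against 2 cannot go below p = 0.333.

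As a whole the genes centred near 0. Of the 46, 28 lay above 0 (60.9%, against 53.4% of all genes) and 18 below (against 46.6%), at a median of 0.05, where all genes had 0.02. A difference of at least 0.5 in size was found in 3 of the 46 (6.52%, against 3.63% of all genes), and one of at least 1 in 0 of them (against 0.209%). The median size of the difference was 0.13 in the members and 0.13 in all genes. The extremes were 0.64 for Cmpk2 and -0.38 for Gbp4. The groups did not overlap in 12 of the 46 that were higher (26.1%, against 13.9% of all genes) and in 2 that were lower (4.35%, against 11.8%), with 25.7% of all genes apart in either direction. The 95% interval lay wholly between -1 and 1 in 42 of the 46. It reached past 1 for Cmpk2, Oas2 and Mx2 and past -1 for Gbp2.

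**Figure D2:**
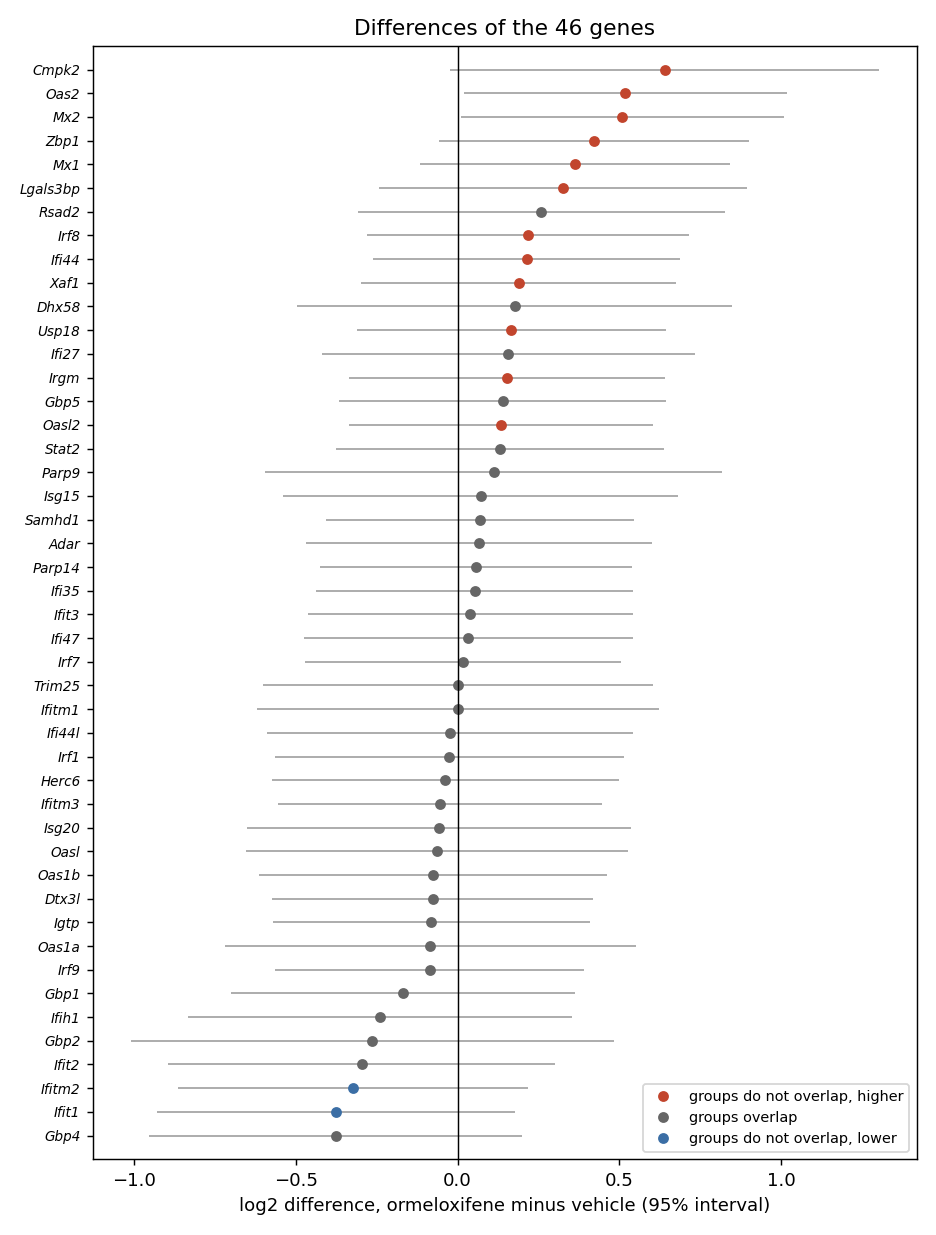
Each row is 1 of the 46 genes, with its log2 difference, ormeloxifene minus vehicle, on the horizontal axis as a point and the 95% interval of the limma fit without a block as a line. Colour shows whether the 2 arrays of a group overlap those of the other. All but Oas2 and Mx2 have an interval that covers 0.

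The 4 arrays carry replicate numbers 1 and 2. Probe sets with an identical deposited value in both arrays of a pair numbered 488 for number 1 and 551 for number 2, and 0 for each of the 4 pairs across numbers. The number was handled on this ground like a batch with both groups in it, although no label names a batch. With the number as a block, 0 of the 46 passed the adjusted threshold by limma, and 5 of all genes did (0.0275%). At an unadjusted p under 0.05 stood 4 of the 46 higher (8.7%, against 3.74% of all genes), namely Cmpk2, Oas2, Mx2 and Zbp1, and 0 lower (against 3.02%). The smallest adjusted p among the 46 with the block was 0.534, that of Cmpk2. On the values as deposited the block gave 0 of the 46 after adjustment (against 0.462% of all genes).

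Within number 1 the median difference of the 46 was 0.02 and within number 2 it was 0.10, where all genes had 0.04 and -0.02. The sign was the same within both numbers in 26 of the 46 genes (56.5%, against 52.3% of all genes). For 29 of the 46 the numbers differed by more than the groups did (63.0%, against 63.9% of all genes). Both arrays of number 2 lay above both of number 1 in 18 of the 46 (39.1%, against 27.4% of all genes), and below them in 5 (10.9%, against 25%).

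**Figure D3:**
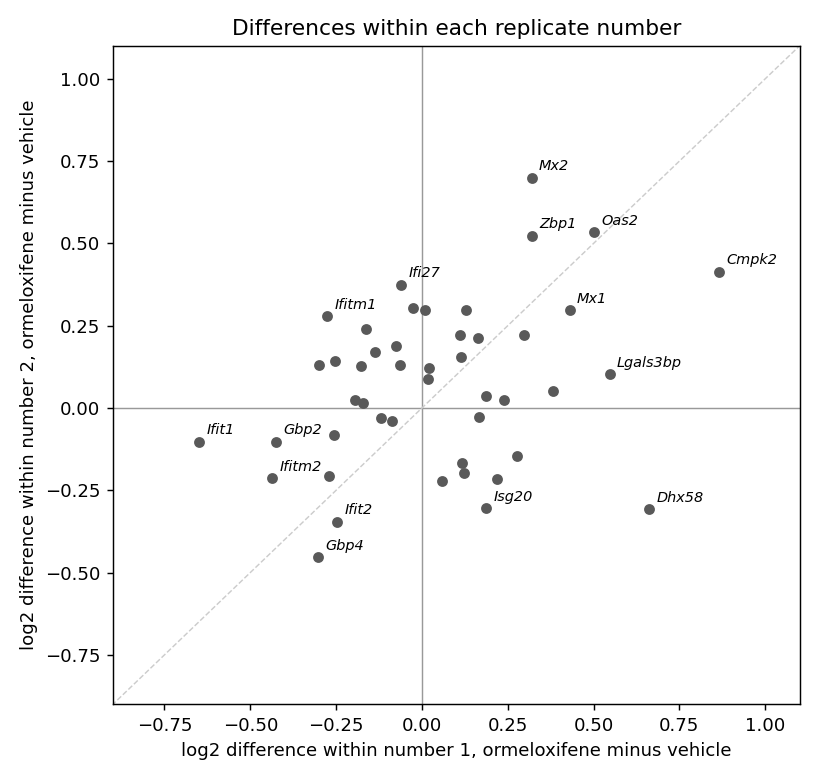
Each point is 1 of the 46 genes. The horizontal axis gives the log2 difference, ormeloxifene minus vehicle, within number 1 and the vertical axis the same within number 2; the dashed line marks equality. Oas2 lies near the line (0.50 and 0.53), whereas Dhx58 lies at 0.66 and -0.31.

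Upstream of the genes are the interferons themselves, of which 8 of 11 listed were measured. Their median brightness was at the 21.3th percentile of the probe sets tested, with Ifna2 at the 52.7th and Ifnl3 at the 61.6th. Percentiles describe probe brightness and not amounts of RNA. Ifng, the gene of interferon gamma, was 5.31 and 5.27 with ormeloxifene, against 5.45 and 4.85 with vehicle, so the groups overlapped. Ifna1, an interferon alpha, was 3.65 and 4.29 with ormeloxifene, against 4.80 and 4.62 with vehicle, at the 10.2th percentile. It was the 1 ligand at an unadjusted p under 0.05 (against 1.08% of all genes lower), at a difference of -0.74 ± 0.26 (unadjusted p = 0.0251), which was -1.06 without ormeloxifene replicate 2 and -0.42 without ormeloxifene replicate 1. Interferon alpha genes share much of their sequence, so its signal is uncertain. For Ifnl3, an interferon lambda, the difference was -0.22 ± 0.21.

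Of 6 listed receptor chains, 5 were measured, with 3 higher, 2 lower and 0 at an unadjusted p under 0.05. Ifnar1 differed by 0.18 ± 0.20, with signals of 7.89 and 7.79 with ormeloxifene and 7.61 and 7.71 with vehicle. For the gamma receptor, Ifngr1 differed by 0.26 ± 0.23 and Ifngr2 by -0.02 ± 0.21. Ifnar2 was not analysed here.

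Among signal transducers and their inhibitors, 10 of 11 were measured, 3 higher and 7 lower, with 2 at an unadjusted p under 0.05, both lower (against 1.08% of all genes). Socs3, a feedback inhibitor of cytokine signalling best known for the Stat3 pathway, was 6.14 and 6.13 with ormeloxifene, against 6.62 and 7.15 with vehicle. Its difference was -0.75 ± 0.24 (unadjusted p = 0.0156), and -0.49 and -1.02 within numbers 1 and 2. Ptpn2, a phosphatase that removes phosphate from Jak kinases, was 7.61 and 7.75 with ormeloxifene, against 8.16 and 8.28 with vehicle. The groups did not overlap for either gene, and 0 of the list passed after adjustment over all genes.

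For the pathway that senses nucleic acids before interferon is made, 14 symbols were listed. Tmem173 and Sting1 name the same gene, as do Mb21d1 and Cgas. Of the genes listed, 9 were measured, with 7 higher and 2 lower. Tlr3, the endosomal receptor of double-stranded RNA, was 7.84 and 7.89 with ormeloxifene, against 7.40 and 7.39 with vehicle, a difference of 0.47 ± 0.20 (unadjusted p = 0.0491). It was the 1 gene of the list at an unadjusted p under 0.05 (against 1.12% of all genes higher). Tlr7, the endosomal receptor of single-stranded RNA, was 7.04 and 7.00 with ormeloxifene, against 6.66 and 6.43 with vehicle (unadjusted p = 0.0545). For both the arrays of the groups did not overlap.

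Genes best known as targets of interferon gamma, among them antigen-processing subunits and chemokines, were listed under 18 symbols. Wars and Wars1 name the same gene. All 17 genes were measured, with 13 higher and 4 lower, where 53.4% of all genes lay above 0. At an unadjusted p under 0.05 by limma stood 0 of the 17 (against 2.2% of all genes in either direction). The chemokine Cxcl9 differed by 0.36 ± 0.23, from 0.06 within number 1 to 0.65 within number 2. Cxcl11, another chemokine for activated T cells, differed by 0.31 ± 0.22. The median of the list was 0.11.

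The transcription factors of the response stayed within 0.22 of 0. Irf8, which directs the growth of macrophages and dendritic cells, was 7.32 and 7.27 with ormeloxifene, against 6.94 and 7.21 with vehicle. Both ormeloxifene arrays were above both vehicle arrays, and the difference was 0.22 ± 0.21. With vehicle replicate 1 left out it was 0.08, and with vehicle replicate 2 left out it was 0.36. Stat2 differed by 0.13 ± 0.22 and its partner Irf9 by -0.09 ± 0.21. Irf7, the amplifier of interferon alpha production, differed by 0.02 ± 0.21, and Irf1, a factor induced strongly by interferon gamma, by -0.03 ± 0.23.

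The sensors went different ways. Zbp1, which recognizes left-handed nucleic acid helices and can start necroptosis, was 5.98 and 6.14 with ormeloxifene, against 5.66 and 5.61 with vehicle. Both ormeloxifene arrays lay above both vehicle arrays, at a difference of 0.42 ± 0.21 (unadjusted p = 0.0764). Dhx58, a helicase that tunes the RIG-I-like receptors, was 5.89 and 5.70 with ormeloxifene, against 5.23 and 6.01 with vehicle, so its highest and lowest arrays were both vehicle ones. Ifih1, the sensor of long double-stranded RNA, differed by -0.24 ± 0.25, and the RNA-editing enzyme Adar by 0.07 ± 0.23.

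The oligoadenylate synthetases make the second messenger that switches on the ribonuclease RNase L. Oas2 was 6.51 and 6.73 with ormeloxifene, against 6.01 and 6.20 with vehicle. Every ormeloxifene array lay above every vehicle array, and the difference was 0.52 ± 0.21 or 1.43-fold (unadjusted p = 0.0439; 0.0132 with the number as a block). Leaving out an array moved it between 0.41 and 0.63. The other 4 family members measured lay nearer 0. Oasl2 was at 0.13 ± 0.20, Oasl at -0.06 ± 0.25, Oas1b at -0.08 ± 0.23 and Oas1a at -0.08 ± 0.27.

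The IFIT proteins bind foreign RNA ends and block translation. Ifit1 was 4.67 and 4.73 with ormeloxifene, against 5.32 and 4.83 with vehicle. The ormeloxifene arrays lay below the vehicle ones, but the difference of -0.38 ± 0.24 was -0.65 within number 1 and -0.10 within number 2. Its probe set was dim, at the 17.4th percentile. Ifit2 was 6.12 and 6.51 with ormeloxifene, against 6.37 and 6.86 with vehicle, which overlapped (-0.30 ± 0.26). Its value was -0.05 when vehicle replicate 2 was left out and -0.54 when vehicle replicate 1 was. Ifit3, which lies between them on chromosome 1, differed by 0.04 ± 0.22.

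Of the 9 interferon-induced GTPases, 5 were higher and 4 lower. Mx2, of the dynamin-like Mx proteins that trap viral nucleocapsids, was 6.10 and 6.37 with ormeloxifene, against 5.78 and 5.67 with vehicle. Again the arrays did not overlap, and the difference was 0.51 ± 0.21 or 1.42-fold (unadjusted p = 0.0465; 0.0202 with the number as a block), from 0.32 within number 1 to 0.70 within number 2. Its paralog Mx1 was 5.81 and 5.64 with ormeloxifene, against 5.38 and 5.34 with vehicle, without overlap (0.36 ± 0.21). Paralogs of this kind share sequence, so their probe sets may share signal.

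The guanylate-binding proteins, which attack the vacuoles of intracellular microbes, lay mostly on the other side. Gbp4 was 5.05 and 5.36 with ormeloxifene, against 5.35 and 5.81 with vehicle. Ormeloxifene replicate 2 reached into the vehicle range, and the difference was -0.38 ± 0.25, with -0.30 and -0.45 within numbers 1 and 2. It was -0.61 with vehicle replicate 1 left out and -0.14 with vehicle replicate 2 left out. Its neighbours Gbp2 (-0.26 ± 0.32) and Gbp1 (-0.17 ± 0.23) overlapped as well, and Gbp5 differed by 0.14 ± 0.22. Of the immunity-related GTPases, Irgm differed by 0.15 ± 0.21, Ifi47 by 0.03 ± 0.22 and Igtp by -0.08 ± 0.21.

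Isg15, a ubiquitin-like protein that is attached to other proteins and a common marker of the response, had a dim probe set at the 11.3th percentile. Its signal was 4.22 and 4.73 with ormeloxifene, against 4.20 and 4.61 with vehicle, so it followed the replicate number more than the group (0.07 ± 0.26). Usp18, the protease that removes Isg15 and dampens receptor signalling, was 6.77 and 6.91 with ormeloxifene, against 6.66 and 6.68 with vehicle. The groups did not overlap at a difference of 0.17 ± 0.20, which was 0.13 with its 2 probe sets averaged. The ligases Herc6 (-0.04 ± 0.23) and Trim25 (0.00 ± 0.26) overlapped.

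Parp9, an ADP-ribosyltransferase family member that pairs with the ligase Dtx3l, was 7.85 and 8.39 with ormeloxifene, against 7.66 and 8.36 with vehicle. Both number 2 arrays lay above both number 1 arrays, and the group difference was 0.11 ± 0.30. Dtx3l differed by -0.08 ± 0.21 and Parp14, encoded beside them on chromosome 11, by 0.06 ± 0.21.

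Cmpk2, a mitochondrial nucleotide kinase, had the largest difference of the 46. Its signal was 7.32 and 7.60 with ormeloxifene, against 6.46 and 7.19 with vehicle. The groups did not overlap, and the vehicle arrays lay 0.73 apart. The difference was 0.64 ± 0.28 or 1.56-fold (unadjusted p = 0.0564; 0.0077 with the number as a block). It was 0.28 with vehicle replicate 1 left out and 1.01 with vehicle replicate 2 left out. Rsad2, the gene next to it on chromosome 6, encodes viperin, an enzyme that makes a chain-terminating nucleotide. It was 6.57 and 6.90 with ormeloxifene, against 6.27 and 6.68 with vehicle, which overlapped (0.26 ± 0.24). Its difference was 0.05 with vehicle replicate 1 left out and 0.47 with vehicle replicate 2 left out.

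The membrane proteins of the Ifitm family, which hinder fusion of viruses with the cell, gave bright signals. Ifitm2 was 9.25 and 9.66 with ormeloxifene, against 9.68 and 9.87 with vehicle, a difference of -0.32 ± 0.23 without overlap. It was -0.12 without ormeloxifene replicate 1 and -0.53 without ormeloxifene replicate 2. Ifitm3 differed by -0.05 ± 0.22 and Ifitm1 by 0.00 ± 0.27, both -0.14 on the values as deposited. The exonuclease Isg20 differed by -0.06 ± 0.25 and Samhd1, which breaks down deoxynucleotides, by 0.07 ± 0.20.

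Of the 6 remaining genes, 5 lay above 0. Lgals3bp, a secreted glycoprotein that binds galectins, was 9.70 and 9.17 with ormeloxifene, against 9.16 and 9.07 with vehicle. The groups did not overlap, and the difference of 0.33 ± 0.24 was 0.06 without ormeloxifene replicate 1 and 0.59 without ormeloxifene replicate 2. Ifi44 (0.21 ± 0.20) and the proapoptotic Xaf1 (0.19 ± 0.21) did not overlap between the groups either. Ifi27 (0.16 ± 0.25), Ifi35 (0.05 ± 0.21) and Ifi44l (-0.02 ± 0.24) did.

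**Figure D4:**
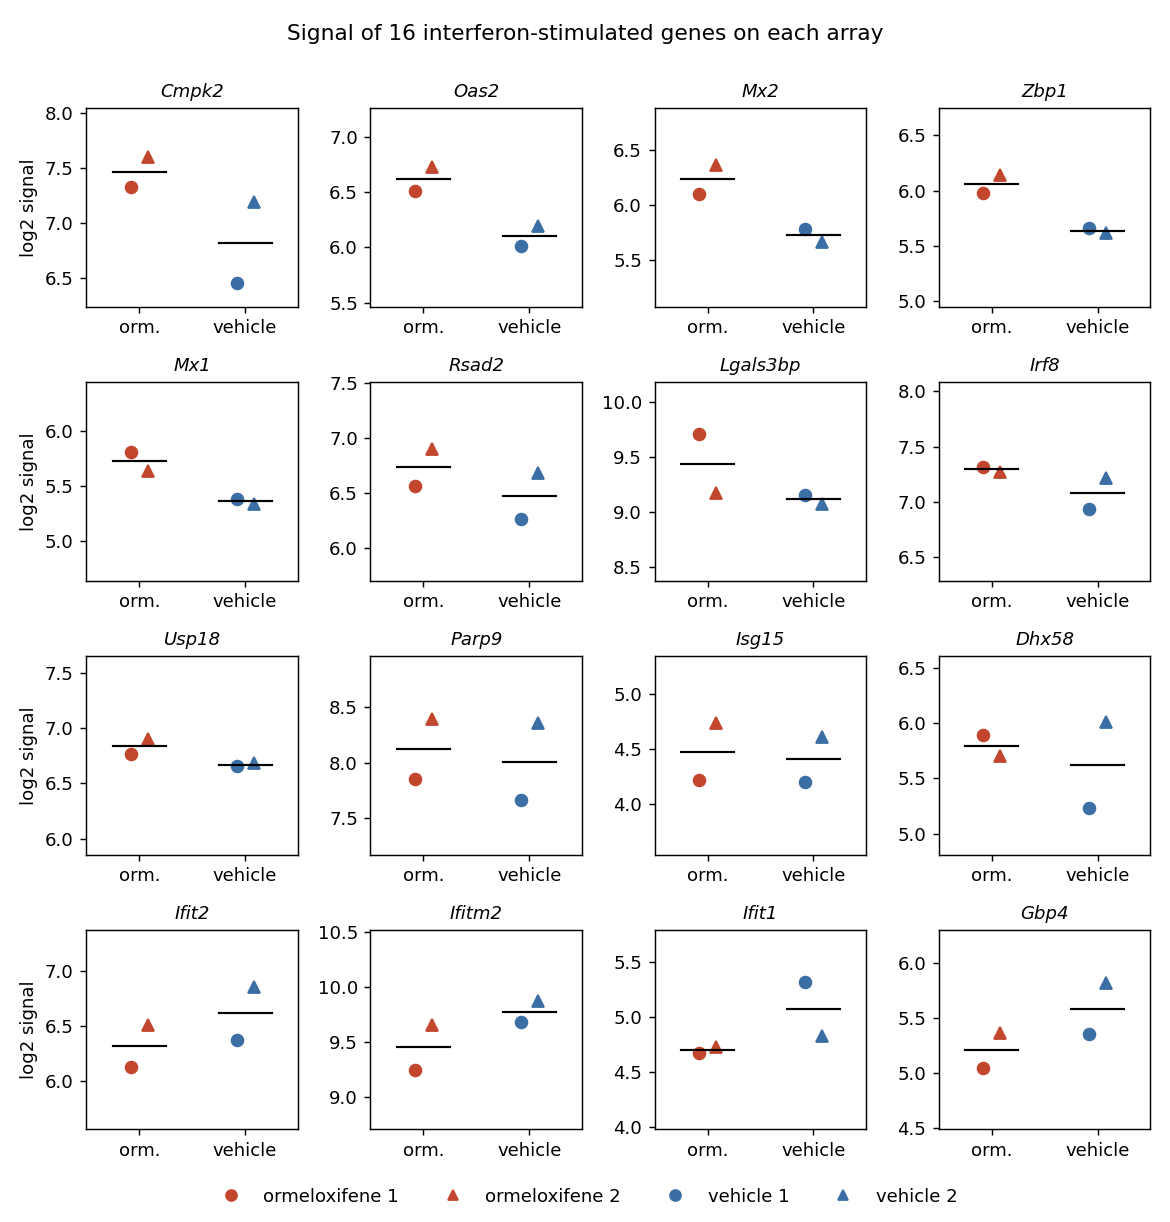
Each panel is 1 of 16 genes, with log2 signal on the vertical axis over a span of 1.8 in every panel. Circles are replicate 1, triangles replicate 2 and lines the group means, with ormeloxifene left of vehicle. Oas2, Mx2, Zbp1 and Mx1 are separated by group, whereas Isg15 and Parp9 are separated by replicate number.

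Members that neighbour each other had differences of either sign. In the GRCr8 annotation, 16 pairs of successive members lay with at most 5 protein-coding genes between them, and the sign of the difference was shared in 6 of the 16. Shared signs included Mx1 with Mx2, Rsad2 with Cmpk2, and Gbp4 with Gbp2 and Gbp1. Oas2, by contrast, lay 3 protein-coding genes from Oas1b, at 0.52 against -0.08.

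Markers of uterine smooth muscle, stroma and epithelium had median brightness at the 99.5th, 95.4th and 73.1th percentile, and the gland marker Foxa2 lay at the 36.8th. These describe probe sets, and no markers of other tissues were set beside them, so the tissue label was not tested. Interferon-stimulated genes are expressed by many cell types, leukocytes included. Of 57 leukocyte markers 53 were measured, with 31 higher and 22 lower, at a median of 0.05. At an unadjusted p under 0.05 stood 1 of the 53 (against 2.2% of all genes in either direction), the granulocyte gene S100a9, at -0.57 ± 0.23. The summed linear signal of these markers was 8648 and 9451 with ormeloxifene, against 8150 and 8662 with vehicle, and no marker was listed at 0. The brightest, Lyz2 and Tcf4 at the 99.2th and 97.8th percentile, weigh most in such a sum. Macrophage markers had a median difference of 0.06 (8 of 12 higher), and T and natural killer cell markers had 0.22 (11 of 14 higher). Summed signals of the T and natural killer cell markers were 1744 and 1834 with ormeloxifene, against 1646 and 1529 with vehicle. The brightest of them, Nkg7 (0.04, groups overlapping) and Cd4 (0.33), weigh most in this sum. The lower ones were Ncr1, Prf1 and Gzmb. The gene with the smallest p was Marco, at -0.31, among the macrophage markers and Gzmb, at -0.53 (-0.77 to -0.28 with 1 array left out), among the T and natural killer cell markers. B and plasma cell markers had a median of -0.02 (1 of 5 higher; Mzb1 at 0.46, or -0.22 to 1.14 with 1 array left out), dendritic cell markers -0.15 (3 of 7 higher; Cd83 at -0.25), granulocyte markers 0.07 (5 of 10 higher) and common leukocyte markers 0.04 (3 of 5 higher; Laptm5 at 0.25). Outside the leukocytes, epithelium had -0.11 (2 of 6 higher; Krt18 at -0.40, or -0.85 to 0.05 with 1 array left out), stroma 0.17 (4 of 6 higher; Hand2 at -0.31), smooth muscle 0.26 (4 of 4 higher; Myh11 at 0.37) and endothelium 0.22 (4 of 4 higher; Cdh5 at 0.25). The part of these cells in the values of Cmpk2, Oas2, Mx2 and Zbp1 was not tested, and in whole tissue more cells of a type and more RNA per cell cannot be told apart.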

How the data were processed

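Rat uterus RNA of 2 groups was hybridized to 4 Affymetrix arrays. The deposited log2 values, 36685 probe sets per array, were made by the authors with Affymetrix Expression Console, per the submitters' processing notes. The sources used here give no version, summary method or genome build, and the log2 scale was read from the values. Column medians ran from 5.67 to 5.93, so quantile normalization was applied over all probe sets (limma 3.58.1, R 4.3.3). The annotation named 1 gene symbol for 18511 probe sets, more for 575 and no symbol for 17599, and 18166 genes were tested.

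Differences came from lmFit and eBayes without a block (2 residual degrees of freedom per gene, 7.55 after moderation), tested on simulated data, where few of the smaller planted changes were recovered. The unblocked p-values rest on the spread between labelled replicates, any shift between replicate numbers included, and on a variance shared across all genes. Arrays of the same replicate number deviated together (r = 0.475 across genes between the 2 groups), and blocked and within-number values are given. The members and lists were chosen with earlier results of these data known. Named were members at unadjusted p under 0.05, the 6 with the largest difference and the smallest p of each role, the 2 smallest p of each pathway list with Ifng and the receptors, and further members to complete their families. Epithelium, stroma, smooth muscle, endothelium and leukocyte markers served as checks. Alternatives changed scaling, block, probe sets, filter, variance model and left-out arrays.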

Additional observations from a re-analysis of the deposited data

How the results depend on the processing

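By limma, 0 of the 46 interferon-stimulated genes passed the adjusted threshold in any alternative tried. The number at an unadjusted p under 0.05 was 2 higher and 0 lower, where all genes had 1.12% and 1.08%. The higher count was 0 on the values as deposited (against 0.314% of all genes higher). It was also 0 with arrays centred on their medians (against 0.617%) and with all probe sets tested (against 0.567% of them). It was 3 with a trended robust variance (against 1.21%) and 4 with the replicate block (against 3.74%). The block on the values as deposited also gave 4 (against 3.12%). Counts with 1 array left out are not given, because 1 group then holds a single array. The median difference of 0.05 ran from -0.0344 without ormeloxifene replicate 2 to 0.138 without ormeloxifene replicate 1. Over all genes, 0 passed the threshold, against 1 with arrays centred on their medians and 5 with the replicate block. With the replicate block on the values as deposited 84 passed. There were 1 with a gene's probe sets averaged, 9 with dim genes left out and 4 with a trended robust variance. The cause of these shifts was not tested. Of the 28 genes above 0 and 18 below, 2 changed sign on the values as deposited, and 8 to 13 when 1 array was left out. Among genes given by array, Parp9 ran from -0.235 to 0.46, Isg15 from -0.18 to 0.33 and Dhx58 from -0.21 to 0.57 over the left-out arrays. With 1 array left in a group, that array is taken to vary like the other group. Signal over background is not part of the table, so what depth limits in dim probe sets such as Isg15 and Ifit1 was not tested.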

Other observations

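The interferon-stimulated genes leaned towards replicate number 2, more clearly with ormeloxifene than with vehicle. With ormeloxifene, replicate 2 was above replicate 1 in 34 of the 46, where 8713 of 18166 genes were. With vehicle it was above in 27 of the 46, nearer to the 9921 of 18166 genes. In both groups alike, 23 of the 46 were higher and 8 lower. Replicate 2 less replicate 1 had a median over the 46 of 0.15 with ormeloxifene and 0.12 with vehicle, where all genes had -0.02 and 0.05. Parp9 (0.54 with ormeloxifene and 0.69 with vehicle), Gbp2 (0.83 with ormeloxifene and 0.51 with vehicle) and Isg15 (0.51 with ormeloxifene and 0.41 with vehicle) are examples, chosen after their values were seen. What the number stands for was not tested.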
